A study of Mus musculus with 26 samples.

Results

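The BCL2 family decides whether a cell releases cytochrome c from its mitochondria and dies. Its pro-survival proteins hold the effectors BAX and BAK in check, BH3-only proteins bind and neutralise the pro-survival proteins or activate the effectors directly, and active effectors open the outer mitochondrial membrane. In T cells BCL2 and MCL1 keep resting cells alive, BIM (Bcl2l11) sets the death of cells deprived of cytokine and of contracting effector cells, and BCL-xL (Bcl2l1) and A1 (the Bcl2a1 genes) are known to be switched on by antigen receptor signals.

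The 10 genes described here were found by symbol in the count table: 5 pro-survival genes (Bcl2, Mcl1, Bcl2l1, Bcl2a1b and Bcl2a1d), 3 BH3-only genes (Bcl2l11, Bbc3 and Pmaip1) and the 2 effectors Bax and Bak1. All 10 were among the 24411 genes of the table, and all 10 were among the 12227 genes that passed the filter on low counts. In the mm10 build, by GENCODE M21, Bcl2 lies at chr1:106538178-106714274 (minus strand), Mcl1 at chr3:95658788-95663176 (plus strand), Bcl2l1 at chr2:152780668-152831728 (minus strand) and Bcl2l11 at chr2:128126038-128162547 (plus strand). In the same build Bbc3 lies at chr7:16308393-16318205 (plus strand), Bax at chr7:45461697-45466898 (minus strand) and Bak1 at chr17:27019810-27029009 (minus strand). Poly(A) RNA was sequenced in bulk from freshly sorted CD4 T cells of lymph nodes plus spleen (C57BL6/J background), in 26 libraries that form 13 groups of 2. Every mouse carried a reporter that marks cells transcribing Foxp3, the gene for the lineage factor of regulatory T cells (Treg), and the study compared Treg with altered Foxp3 or BATF, an AP-1 family transcription factor, with control Treg.

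BATFKO Treg were CD4+hCD2+ cells of Foxp3-IRES-hCD2.Batf-/- mice, which lack Batf in all cells. Their controls, WT Treg, were CD4+hCD2+ cells of Foxp3-IRES-hCD2 mice, and Tconv were the CD4+hCD2- cells of the same genotype. The YFP sort took CD4+YFP+hCD2- cells, named BATFcKO Treg YFP and WT Treg YFP, from mice with 1 Foxp3-IRES-YFPCre and 1 Foxp3-IRES-hCD2 allele, with and without Batfflox/flox. The Cre of that allele is made where Foxp3 is transcribed, so the deletion is restricted to Foxp3-expressing cells, and such mice also hold Treg that use the other Foxp3 allele. Foxp3R397W Treg and Foxp3KO Treg were CD4+hCD2+GFP- cells of mice with the R397W or the fs101 form of Foxp3 on the hCD2 allele and a second Foxp3-IRES-GFP allele. Each had its own controls with Foxp3WT-IRES-hCD2 and the same GFP allele, called here the R397W control and the Foxp3KO control. In Foxp3-IRES-hCD2 mice 4 populations were sorted by CCR7, CD62L and CD44: effector Treg (eTreg, hCD2+CCR7loCD62Llo), central Treg (cTreg, hCD2+CCR7hiCD62LhiCD44lo), effector conventional cells (Teff, hCD2-CCR7loCD62Llo) and naive conventional cells (Tnaive, hCD2-CCR7hiCD62LhiCD44lo). The labels give no age, and whether 2 libraries of 1 group are 2 mice is not stated, so the p-values measure the spread between these libraries.

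Library totals were 5615929 to 10641332 reads in 22 libraries and 26321134 to 34613707 reads in the 4 libraries of the Foxp3KO set, which also lay highest on the second principal component of all genes, apart from the other 22. Levels are given below as CPM, each gene's count relative to the TMM-scaled library total, and comparisons between genes as CPM per kilobase of exon. Batf was at 7.02 ± 0.273 CPM in BATFKO Treg and 64.5 ± 26.1 CPM in WT Treg, and at 17.7 ± 2.52 CPM in BATFcKO Treg YFP and 63.1 ± 6.64 CPM in WT Treg YFP (SD, n = 2 each). Foxp3 was at 110.9 ± 3.05 CPM in Foxp3KO Treg and 337 ± 16.1 CPM in their controls, and at 350.9 ± 11.7 CPM in Foxp3R397W Treg and 416 ± 51.6 CPM in theirs. Treg markers (8 genes) summed to 1790.3 to 4651 CPM in all 20 libraries of Treg populations, mutants included, 676.3 to 974.6 CPM in Teff and 96.4 to 276.7 CPM in Tnaive and Tconv.

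By the reads as counted, Mcl1 was the most abundant pro-survival transcript per kilobase in all 26 libraries. It had 62.9 to 86.4% of the summed level of the 5 pro-survival genes. The rest of that sum divided in different ways between populations. Bcl2 had 22.4 and 22.3% of the sum in cTreg, against 11.5 and 10.9% in Tnaive, 7.08 and 5.90% in eTreg, and 6.60 and 5.72% in Teff. Bcl2a1b and Bcl2a1d together had 19.6 and 24.2% in eTreg against 3.71 and 3.82% in cTreg, and 23.3 and 25.5% in Teff against 2.57 and 2.78% in Tnaive. The effector populations of both lineages therefore had a larger Bcl2a1 share and a smaller Bcl2 share than the resting populations in both libraries of each. In ungated control Treg the Bcl2a1 share was 24.2 and 26.6% in the Foxp3KO controls and 10.2 and 10.2% in the R397W controls. It was 10.1 and 10% in WT Treg and 9.13 and 8.58% in WT Treg YFP. Of the 50-base stretches of Bcl2a1b and Bcl2a1d exons, 79.2% and 79.5% also occur in other genes. How such reads were assigned is not given, and the shares and the rank of Mcl1 depend on it.

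**Figure D1:**
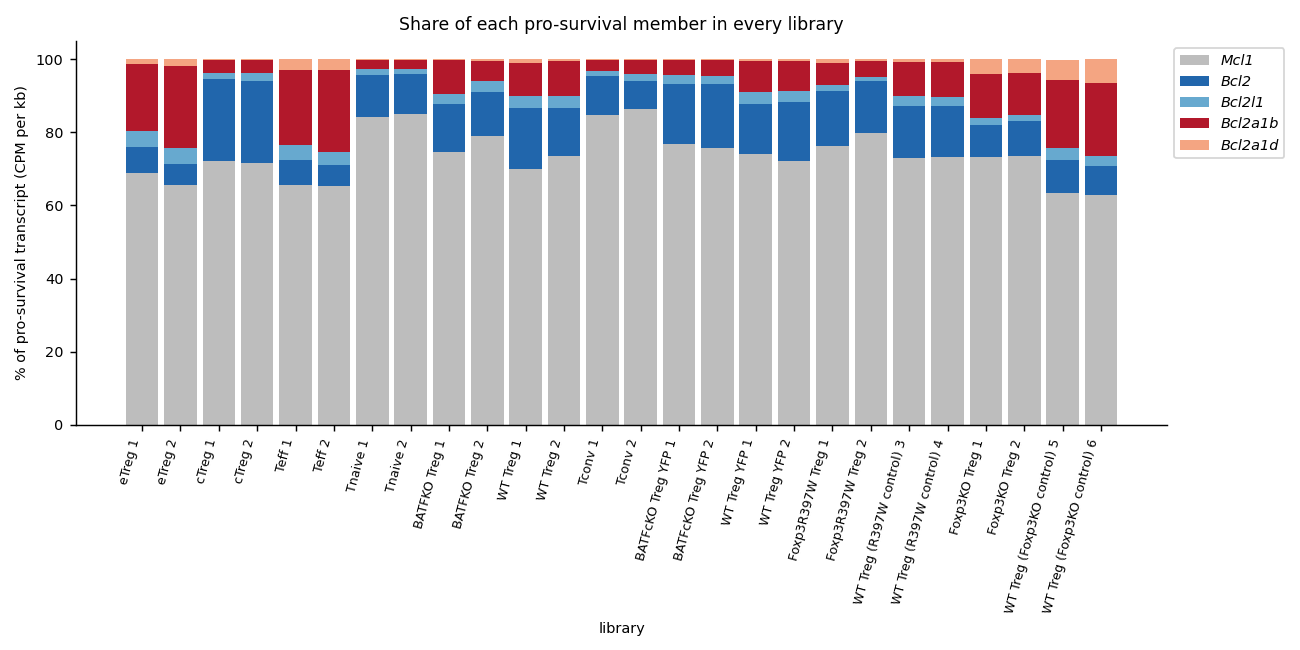
Share of each pro-survival gene in the summed pro-survival transcript level (CPM per kilobase of exon, y axis in percent) in each of the 26 libraries (x axis). By the reads as counted, Mcl1 (grey) has 62.9 to 86.4% in every library. Bcl2a1b and Bcl2a1d (reds) together have 19.6 to 25.5% in eTreg and Teff and 2.57 to 3.82% in cTreg and Tnaive.

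The 2 A1 genes have to be read together. Bcl2a1b (mm10 chr9:89199209-89207827, plus strand) and Bcl2a1d (chr9:88723285-88731914, minus strand) are near-identical copies, and 57.6% of the 50-base stretches of Bcl2a1b exons also occur in Bcl2a1d. With any other gene Bcl2a1b shares 79.2% of its stretches, and with Gm29094 alone it shares 46%. Gm29094 is a gene model that overlaps it on the same strand over 401 exon bases. The sources used here do not say how reads that match more than 1 of them were assigned. Bcl2a1d had 23.5 to 27.0% of the reads of the pair in the Foxp3KO set and 3.64 to 16.2% in the other libraries. The other copies, Bcl2a1a and Bcl2a1c, had at most 9 and 11 reads in any library. The summed reads of the Bcl2a1 copies were therefore also fitted. Bcl2a1b and Bcl2a1d had log2 fold changes of opposite sign in Foxp3R397W Treg against their controls (-0.82 and 0.06). There the sum gave -0.75 ± 0.186 (SE, adjusted p = 0.020, edgeR). They also had opposite signs in eTreg against Teff (0.20 and -0.58), where the sum gave 0.11 ± 0.166 (adjusted p = 0.80, edgeR). In BATFKO Treg both were lower without passing, and the sum gave -0.24 ± 0.183 (adjusted p = 0.75, edgeR).

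Because BATF binds AP-1-like elements as a dimer with JUN proteins, the promoters were searched for the AP-1 heptamer TGANTCA, a pattern that is its own reverse complement. The search covered both strands of RefSeq windows of 300 bases around annotated starts (build GRCm38.p6, the same assembly as mm10). It was present in the windows of Bcl2a1b, Bcl2a1d and Bcl2a1a and in 7.81% of all 32851 windows. These windows hold copies of a similar stretch, so their matches are not separate observations. It was absent from the window of the copy Bcl2a1c. It was absent from the windows of the other 7 members that have one, and Pmaip1 has no window in that table. The 107 bases around each match, upstream of the annotated starts, are shown with the match in capitals, because Bcl2a1b is the member that was lower in BATFcKO Treg YFP:
Bcl2a1b, chr9:89199049-89199155, plus strand: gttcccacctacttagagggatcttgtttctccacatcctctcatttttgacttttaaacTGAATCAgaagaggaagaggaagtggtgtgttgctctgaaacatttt
Bcl2a1d, chr9:88731918-88732024, minus strand: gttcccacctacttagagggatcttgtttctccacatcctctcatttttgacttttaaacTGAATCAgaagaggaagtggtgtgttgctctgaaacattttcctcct
The Bcl2a1a stretch is identical to that of Bcl2a1b in all 107 bases, and Bcl2a1b and Bcl2a1d have the same base in 101 of 113 columns of their alignment. A match describes letters in a window and does not show binding. Bcl2a1b was also lower in both Foxp3 mutants and did not pass in BATFKO Treg, as given below. A forkhead heptamer, GTAAACA on either strand, occurred in 1 of 2 windows of Bcl2l11, in 1 of 3 of Bbc3 and in 3.65% of all windows. An NF-kB pattern occurred in 1 of 3 windows of Bcl2l1, in 1 of 3 of Bbc3 and in 4.51% of all windows. The forkhead match of Bbc3 and its NF-kB matches lie in different windows.

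Between eTreg and cTreg the pro-survival genes differed in opposite directions. Bcl2 was at 197.8 and 162.6 CPM in eTreg and 823.4 and 786.8 CPM in cTreg. Both eTreg libraries lay far below both cTreg libraries, a log2 fold change of -2.16 ± 0.168 (SE; adjusted p = 1.5e-08, edgeR quasi-likelihood test with Benjamini-Hochberg adjustment over all tested genes, as for every adjusted p below). Mcl1 was at 716.8 and 673.3 CPM in eTreg and 988.5 and 944.5 CPM in cTreg, a smaller fall of 0.48 on the log2 scale (adjusted p = 0.00032, edgeR). Bcl2a1b was at 45.6 and 54.8 CPM in eTreg and 11.4 and 11.2 CPM in cTreg, 4.44-fold higher (log2 2.15 ± 0.177, adjusted p = 2.8e-08, edgeR). Bcl2a1d was low in both populations but moved the same way, with 3.54 and 4.80 CPM in eTreg and 0.846 and 0.892 CPM in cTreg (log2 2.25 ± 0.401). Bcl2l1 was at 63.0 and 60.9 CPM in eTreg and 33.8 and 38.0 CPM in cTreg, 1.73-fold higher (adjusted p = 0.00016, edgeR). Thus Bcl2 and Mcl1 were lower, and Bcl2l1 and both A1 genes higher, in eTreg, with no overlap between the libraries of the 2 populations.

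The BH3-only genes also split. Bcl2l11, whose product BIM binds all pro-survival members, was at 52.1 and 53.5 CPM in eTreg and 165.3 and 147.0 CPM in cTreg. It fell by 1.56 on the log2 scale (SE 0.128, adjusted p = 2.6e-08, edgeR). Pmaip1, which encodes NOXA, a selective partner of MCL1 and A1, was at 21.1 and 25.2 CPM in eTreg and 5.36 and 5.25 CPM in cTreg (log2 2.12 ± 0.216, adjusted p = 3.6e-07, edgeR). Bbc3, which encodes the p53 target PUMA, was at 36.5 and 33.2 CPM in eTreg and 33.5 and 26.1 CPM in cTreg, with overlapping libraries and an adjusted p of 0.70 (edgeR). The effectors did not pass the test: Bax was at 86.9 ± 3.33 CPM in eTreg and 81.3 ± 5.80 CPM in cTreg, and Bak1 at 84.8 ± 5.49 CPM in eTreg and 69.4 ± 5.56 CPM in cTreg (SD, n = 2 each). In all, 7 of the 10 genes passed the test, 4 higher and 3 lower, against 31.1% of all tested genes in either direction (18.8% higher, 12.3% lower). None of these 7 calls was lost when any 1 library of the pair was left out, and Bak1 also passed as higher when the 8 libraries of this sort were fitted alone (adjusted p = 0.014, edgeR).

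Between Teff and Tnaive, 9 of the 10 genes passed the test, 5 higher and 4 lower, where 35.3% of all tested genes did (21.2% higher, 14% lower). Bcl2 was at 142.2 and 137.4 CPM in Teff and 280.7 and 270.8 CPM in Tnaive (log2 -0.98 ± 0.164, adjusted p = 9.6e-05, edgeR). Mcl1 was at 528.7 and 584.8 CPM in Teff and 767.9 and 787.9 CPM in Tnaive, and again fell by 0.48 on the log2 scale. Bcl2a1b was at 39.5 and 48.2 CPM in Teff and 5.4 and 5.79 CPM in Tnaive, 7.82-fold higher (adjusted p = 8.1e-10, edgeR). These 3 genes thus moved in the same direction in conventional cells as in Treg. Bcl2a1d had 58 and 74 reads in Teff and only 2 and 4 reads in Tnaive, so its fitted log2 fold change of 4.31 ± 0.471 rests on few reads on the Tnaive side. Bcl2l1 was at 46.7 and 42.3 CPM in Teff and 19.6 and 16.9 CPM in Tnaive, 2.44-fold higher.

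Pmaip1 was nearly silent in Tnaive. It had 137 and 214 reads in Teff, or 13.4 and 19.5 CPM, and 5 and 5 reads in Tnaive, or 0.509 and 0.499 CPM (log2 5 ± 0.333, adjusted p = 1.1e-09, edgeR). Bcl2l11 was at 76.1 and 67.9 CPM in Teff and 98.5 and 94.5 CPM in Tnaive, a fall of 0.42 on the log2 scale (adjusted p = 0.013, edgeR) that did not pass without Tnaive library 1 (adjusted p = 0.080) or without Teff library 2 (adjusted p = 0.13). Bbc3 was at 17.8 and 17.2 CPM in Teff and 41.2 and 37.9 CPM in Tnaive (log2 -1.18 ± 0.377, adjusted p = 0.019, edgeR), and it missed the threshold whichever of the 4 libraries was left out (Tnaive library 1, adjusted p = 0.083, Tnaive library 2, 0.052, Teff library 1, 0.079, Teff library 2, 0.097) and without the filter on low counts (0.067). Bak1 was 1.5-fold higher in Teff, at 91.8 ± 2.55 CPM in Teff and 61.2 ± 4 CPM in Tnaive (SD, n = 2 each, adjusted p = 0.0013, edgeR). Bax was at 87.4 and 95.2 CPM in Teff and 69.6 and 73.2 CPM in Tnaive, and did not pass (adjusted p = 0.14, edgeR) unless the sort was fitted alone (0.0023).

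The Teff libraries also had higher sums for marker lists of other cell types. The 12 myeloid and dendritic markers summed to 366.6 and 150.0 CPM in Teff libraries 1 and 2 and to 45.2 and 46.8 CPM in Tnaive, with 11 of 12 above 1 CPM in both Teff libraries and 2 of 12 in both Tnaive libraries. The 7 CD8 and NK markers summed to 382.3 and 273.4 CPM in Teff and 19.8 and 21.7 CPM in Tnaive. Which cells made these transcripts was not tested, nor was the part of other cell types in the Teff values. In bulk RNA fewer cells of a type and less RNA per cell cannot be told apart.

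**Figure D2:**
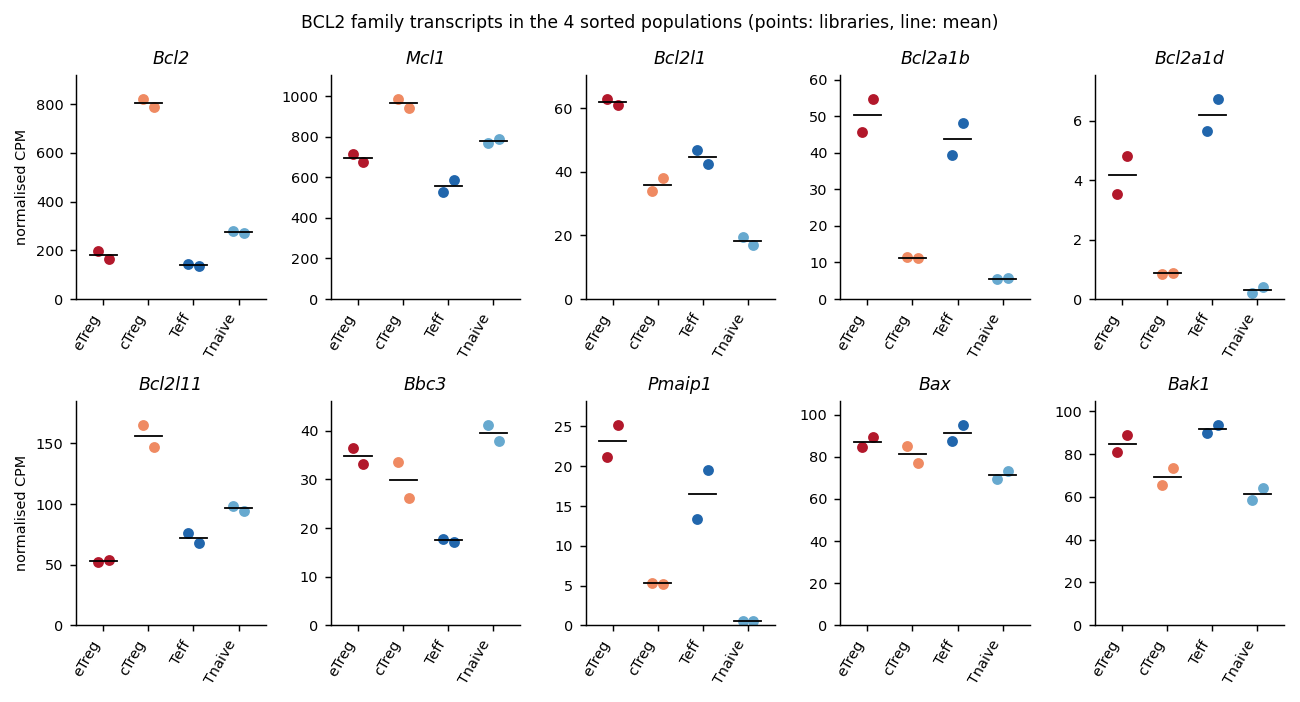
Level of each of the 10 genes (y axis, normalised CPM, from 0) in eTreg, cTreg, Teff and Tnaive (x axis). Each point is 1 library and the line is the mean of 2. Bcl2 and Bcl2l11 are highest in cTreg, Bcl2a1b and Pmaip1 are high in eTreg and Teff, and Bax lies between 69.6 and 95.2 CPM throughout.

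The size of the change from resting to effector cells was compared between the lineages as a difference of log2 fold changes. It passed the test for 3 of the 10 genes, where 5.42% of all tested genes did (1.57% higher, 3.85% lower). For Bcl2 the change in Treg was lower by 1.18 ± 0.230 than in conventional cells (adjusted p = 0.0028, edgeR), and for Bcl2l11 it was lower by 1.14 ± 0.178 (adjusted p = 0.00036, edgeR). For Pmaip1 the difference was -2.88 ± 0.452 (adjusted p = 4e-04, edgeR): the gene was higher in the effector cells of both lineages, and the increase over the nearly silent Tnaive was the larger one. Leaving out any 1 of the 8 libraries kept these 3 calls. The Mcl1 difference was 0.01 ± 0.124, and that of Bcl2a1b was -0.82 ± 0.262 (adjusted p = 0.086, edgeR); the summed Bcl2a1 reads gave -0.96 with an adjusted p of 0.046. Bbc3 had a difference of 1.41 ± 0.524 (adjusted p = 0.17, edgeR), which passed with the 8 sorted libraries fitted alone (0.00016), as did those of Bcl2l1 (0.044) and Bcl2a1b (0.029).

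The 3 genes differed between resting Treg and naive cells to begin with. In cTreg against Tnaive 6 genes were higher and 0 lower (12.2% of all tested genes passed, 7.91% higher and 4.29% lower): Bcl2 by 2.92-fold, Mcl1 by 1.24-fold, Bcl2l1 by 1.97-fold, Bcl2a1b by 2.02-fold, Bcl2l11 by 1.62-fold and Pmaip1 by 10.3-fold. Bcl2 averaged 805.1 ± 25.9 CPM in cTreg and 275.8 ± 6.96 CPM in Tnaive, and Bcl2l11 averaged 156.2 ± 12.9 CPM in cTreg and 96.5 ± 2.84 CPM in Tnaive (SD, n = 2 each). A pro-survival gene and its BH3-only antagonist were thus both higher in cTreg. Pmaip1 had 57 and 53 reads in cTreg against the 5 and 5 reads in Tnaive. The Mcl1 call (log2 0.31 ± 0.088, adjusted p = 0.022, edgeR) was lost without any 1 of the 4 libraries (without cTreg library 1, adjusted p = 0.17, without cTreg library 2, 0.070, without Tnaive library 1, 0.15, without Tnaive library 2, 0.098) and without the filter on low counts (0.24). With the sort fitted alone Bbc3 passed as lower in cTreg (log2 -0.41, adjusted p = 0.027, edgeR), at 33.5 and 26.1 CPM in cTreg and 41.2 and 37.9 CPM in Tnaive.

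In eTreg against Teff 3 genes passed (15.5% of all tested genes, 8.21% higher and 7.26% lower): Mcl1 was 1.25-fold higher, Bcl2l1 1.39-fold higher and Bcl2l11 lower by 0.45 on the log2 scale (adjusted p = 0.016, 0.019 and 0.020, edgeR). None of the 3 passed without eTreg library 1 (adjusted p = 0.15, 0.11 and 0.13) or without Teff library 1 (0.22, 0.056 and 0.20), Mcl1 alone passed without eTreg library 2 (Bcl2l1 0.072, Bcl2l11 0.096), and without Teff library 2 Bcl2l1 missed the threshold (0.16) while Pmaip1 passed (0.025). Bcl2 was at 197.8 and 162.6 CPM in eTreg and 142.2 and 137.4 CPM in Teff (log2 0.37 ± 0.163, adjusted p = 0.16, edgeR). Bbc3 was at 36.5 and 33.2 CPM in eTreg and 17.8 and 17.2 CPM in Teff, apart in all 4 libraries but with an adjusted p of 0.089 (edgeR). With the sort fitted alone Bcl2 (adjusted p = 0.0052) and Bbc3 (7.9e-05) passed as higher in eTreg. Bcl2a1b overlapped between the populations.

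Without gating on activation, Treg also differed from Tconv. In WT Treg against Tconv 5 genes were higher and 0 lower (18.7% of all tested genes passed, 12.1% higher and 6.68% lower): Bcl2 (log2 1.01 ± 0.164), Bcl2l1 (1.21 ± 0.147), Bcl2a1b (1.70 ± 0.202), Bcl2a1d (1.88 ± 0.526) and Pmaip1 (2.33 ± 0.199). Bcl2l1 was at 58.0 and 53.2 CPM in WT Treg and 21.2 and 26.8 CPM in Tconv, and Pmaip1 was at 69.6 and 80.5 CPM in WT Treg and 15.6 and 14.3 CPM in Tconv. Both genes were apart in all 4 libraries. Bcl2a1d rested on 27 and 11 reads in WT Treg and 3 and 6 reads in Tconv, and lost its call without WT Treg library 1 (adjusted p = 0.23) or Tconv library 1 (0.12). Without Tconv library 2, Bax (adjusted p = 0.032) and Bak1 (0.043) passed as higher in WT Treg, and Bak1 also passed without WT Treg library 1 (0.022). When only the 6 libraries of this sort were fitted, Bcl2 (adjusted p = 0.10) and Bcl2a1d (0.16) no longer passed. With the library number added as a replicate block, Bbc3 passed as lower in WT Treg (log2 -0.42, adjusted p = 0.017, edgeR). Bak1 then passed as higher (adjusted p = 0.0020, edgeR), where 4168 of all tested genes passed. Bcl2l11 did not differ beyond the spread, at 153.3 ± 7.03 CPM in WT Treg and 146.9 ± 22.1 CPM in Tconv (SD, n = 2 each).

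Bbc3 varied within the groups of that sort. It was at 35.4 and 82.5 CPM in BATFKO Treg libraries 1 and 2, 39.7 and 74.8 CPM in WT Treg and 47.2 and 109.5 CPM in Tconv. The library numbered 2 was the higher one in all 3 groups. Bax went the same way, at 85.5 and 106.6 CPM in BATFKO Treg, 80.3 and 104.6 CPM in WT Treg and 63.0 and 107.0 CPM in Tconv. What the numbers mark is not given in the labels, and these 3 groups had the largest differences between replicates of all 13 over all genes.

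Germline loss of BATF moved none of the 10 genes past the threshold with edgeR without a replicate block, where 2.69% of all tested genes passed (1.05% higher, 1.64% lower). Unadjusted p was under 0.05 for Mcl1 and Bcl2a1d (both 0.016, edgeR), and DESeq2 called Mcl1, where it called 444 of all genes. Mcl1 was at 1061 and 1109 CPM in BATFKO Treg and 958.7 and 888.4 CPM in WT Treg (log2 0.23 ± 0.088, adjusted p = 0.23, edgeR, and 0.042 with DESeq2). With the replicate block Mcl1 passed as higher (adjusted p = 0.025, edgeR), where 1036 of all tested genes passed. The labels do not say that equal numbers pair libraries. Bcl2a1b was at 31.3 and 19.0 CPM in BATFKO Treg and 29.5 and 27.3 CPM in WT Treg, with overlapping libraries. Bcl2l11 was at 179.2 and 181.1 CPM in BATFKO Treg and 148.3 and 158.3 CPM in WT Treg, apart in all 4 libraries, with a log2 fold change of 0.23 ± 0.124 and an adjusted p of 0.51 (edgeR).

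When Batf was deleted in Foxp3-expressing cells, 2 of the 10 genes passed, where 2.04% of all tested genes did (0.319% higher, 1.72% lower). Bcl2a1b was at 14.0 and 14.8 CPM in BATFcKO Treg YFP and 25.3 and 25.6 CPM in WT Treg YFP, a fall of 0.82 on the log2 scale (SE 0.190, adjusted p = 0.026, edgeR). Bcl2l11 was at 163.9 and 181.3 CPM in BATFcKO Treg YFP and 118.1 and 105.9 CPM in WT Treg YFP, 1.54-fold higher (log2 0.62 ± 0.126, adjusted p = 0.0099, edgeR). The A1 gene was lower and the BIM gene higher in both mutant libraries than in both controls. The Bcl2a1b call was lost on leaving out any 1 library, with adjusted p of 0.12 and 0.15 without WT Treg YFP library 1 or 2 and 0.23 and 0.18 without BATFcKO Treg YFP library 1 or 2, while the log2 value stayed between -0.86 and -0.78. It was also lost without the Foxp3KO set (adjusted p = 0.055). The Bcl2l11 call was lost without WT Treg YFP library 2 (adjusted p = 0.17) or BATFcKO Treg YFP library 2 (0.15), at log2 values of 0.54 and 0.55.

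Among the genes that did not pass, Bcl2 was at 617.2 and 664.5 CPM in BATFcKO Treg YFP and 456.6 and 576.6 CPM in WT Treg YFP (adjusted p = 0.53, edgeR), and Mcl1 was at 1078 and 1086 CPM in BATFcKO Treg YFP and 917.2 and 957.3 CPM in WT Treg YFP (adjusted p = 0.36, edgeR). With the replicate block both passed as higher (adjusted p = 0.023 and 0.047, edgeR), as did Bbc3 (0.025), where 1115 of all tested genes passed. Pmaip1 stood at 20.2 and 14.5 CPM in BATFcKO Treg YFP and 17.6 and 12.6 CPM in WT Treg YFP, against 60.1 to 80.5 CPM in BATFKO Treg and WT Treg of the germline sort; sort and genotype cannot be told apart in that gap. The difference between germline and Foxp3-restricted loss of BATF passed for 0 of the 10 genes and for 0 of all tested genes with edgeR, while 633 genes, 2 of the 10 among them, had an unadjusted p under 0.05 and DESeq2 called 11 genes and 0 of the 10. For Bcl2a1b that difference was 0.66 ± 0.260, and for Bcl2l11 it was -0.39 ± 0.176, on the log2 scale (adjusted p = 0.88 and 0.95, edgeR). The 2 BATF models were therefore not shown to differ in these genes.

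Treg with the R397W form of Foxp3 had lower levels of 3 of the 10 genes and higher levels of 0, where 6.13% of all tested genes passed (2.18% higher, 3.94% lower). Bcl2l1 was at 31.0 and 22.3 CPM in Foxp3R397W Treg and 52.5 and 48.5 CPM in their controls (log2 -0.93 ± 0.145, adjusted p = 0.00053, edgeR). Pmaip1 was at 25.1 and 27.4 CPM in Foxp3R397W Treg and 50.9 and 71.0 CPM in their controls (log2 -1.21 ± 0.187, adjusted p = 0.00045, edgeR). Bcl2a1b was at 20.6 and 17.0 CPM in Foxp3R397W Treg and 32.5 and 33.6 CPM in their controls (log2 -0.82 ± 0.181, adjusted p = 0.0090, edgeR). All 3 genes were lower in both mutant libraries than in either control library. The Bcl2a1b call was lost without control library 3 (adjusted p = 0.055), control library 4 (0.066) or Foxp3R397W library 2 (0.16), and Bcl2l11 passed as higher without Foxp3R397W library 1 (log2 0.57, adjusted p = 0.030). With all libraries Bcl2l11 was at 145.2 and 185.5 CPM in Foxp3R397W Treg and 124.3 and 132.5 CPM in their controls (log2 0.36 ± 0.125, adjusted p = 0.11, edgeR), and it passed with the 4 libraries of this set fitted alone (0.021).

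In Foxp3KO Treg 4 of the 10 genes passed, 3 lower and 1 higher, where 9% of all tested genes did (2.62% higher, 6.39% lower). Bcl2l1 was at 32.7 and 33.3 CPM in Foxp3KO Treg and 58.8 and 49.8 CPM in their controls (log2 -0.72 ± 0.130, adjusted p = 0.0012, edgeR). Pmaip1 was at 35.7 and 35.9 CPM in Foxp3KO Treg and 71.3 and 73.0 CPM in their controls, 2.02-fold lower (adjusted p = 6e-04, edgeR). Bcl2a1b was at 40.5 and 39.6 CPM in Foxp3KO Treg and 61.7 and 67.6 CPM in their controls (log2 -0.69 ± 0.153, adjusted p = 0.0064, edgeR). These are the 3 genes that were lower in Foxp3R397W Treg, measured against separate controls. Bcl2l11 was at 174.7 and 197.2 CPM in Foxp3KO Treg and 127.1 and 115.6 CPM in their controls, 1.53-fold higher (log2 0.62 ± 0.121, adjusted p = 0.0025, edgeR).

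Leaving out control library 6 ended the calls of Bcl2a1b (adjusted p = 0.099) and Bcl2l11 (0.067) in Foxp3KO Treg, and leaving out Foxp3KO library 2 did the same (0.085 and 0.064), while without Foxp3KO library 1 only Bcl2a1b was lost (0.055). Bcl2l1 and Pmaip1 passed in both Foxp3 mutants whichever library was left out. The difference between the Foxp3KO and Foxp3R397W changes passed for 0 of the 10 genes with edgeR and with DESeq2. With edgeR it passed for 2 of all tested genes (0.0164%, with 0.00818% in each direction). Unadjusted p was under 0.05 for 1 of the 10 and for 407 of all tested genes (edgeR). The largest difference among the 10 was 1.21 ± 0.521 for Bbc3 (adjusted p = 1, edgeR). Bbc3 was at 60.7 and 61.3 CPM in Foxp3KO Treg and 46.9 and 36.9 CPM in their controls, and at 17.2 and 24.7 CPM in Foxp3R397W Treg and 34.5 and 32.3 CPM in their controls, higher in the one mutant and lower in the other without passing the test in either. With each set fitted alone Bbc3 passed in both, as higher in Foxp3KO Treg (log2 0.54, adjusted p = 0.0092) and lower in Foxp3R397W Treg (log2 -0.66, adjusted p = 0.0047, edgeR). Mcl1 was at 1038 and 1056 CPM in Foxp3KO Treg and 873.8 and 889.6 CPM in their controls (log2 0.25, adjusted p = 0.093, edgeR), and passed with DESeq2 (0.0086) and with the set fitted alone (0.00078). Bcl2a1d (0.0028) and Bak1 (0.0035) also passed with the set fitted alone, both as lower in Foxp3KO Treg. Bcl2 passed in none of the 4 mutants with edgeR without a replicate block. It was at 339.0 and 370.1 CPM in Foxp3KO Treg and 338.0 and 299.5 CPM in their controls, and at 565.2 and 610.9 CPM in Foxp3R397W Treg and 547.9 and 554.1 CPM in their controls.

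**Figure D3:**
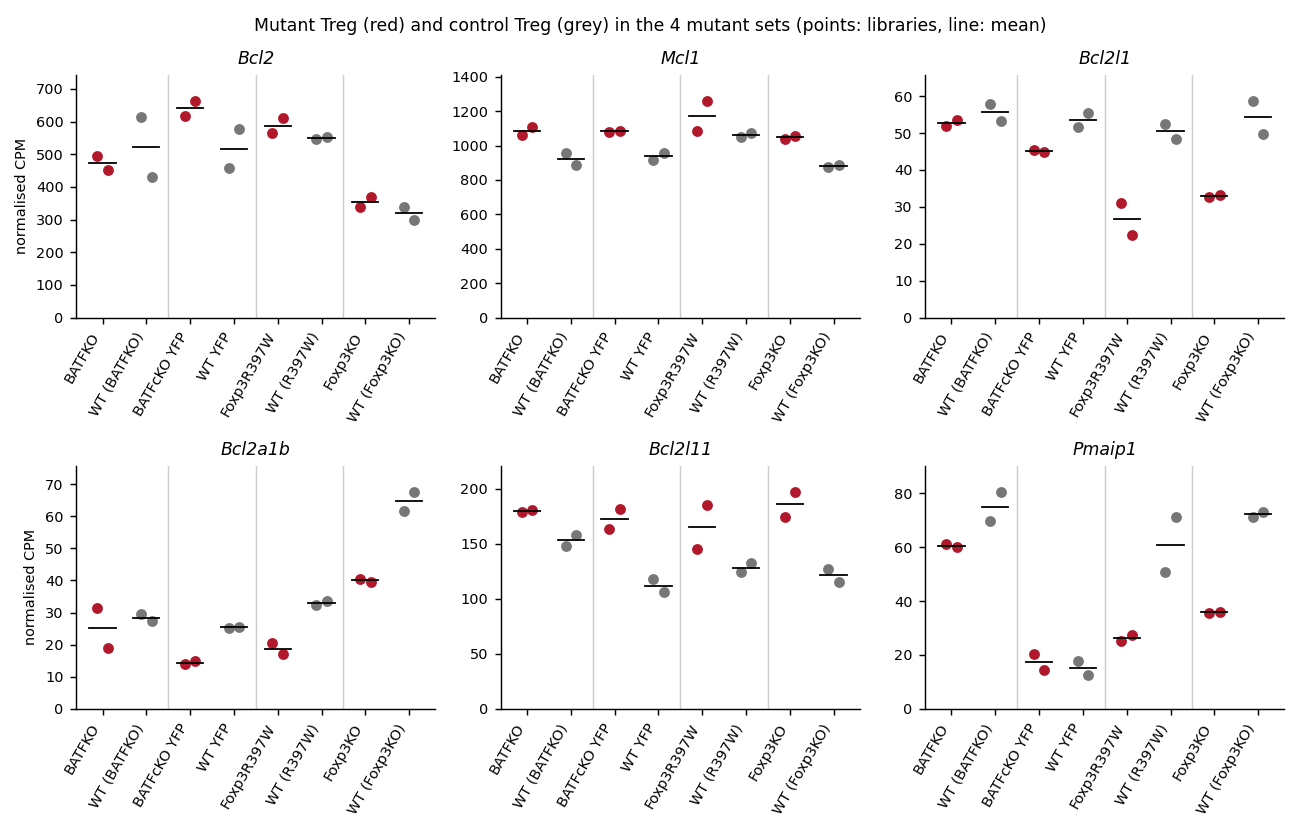
Levels of 6 of the genes (y axis, normalised CPM, from 0) in mutant Treg (red) and their own controls (grey) in the 4 mutant sets (x axis). Each point is 1 library and the line is the mean of 2. With edgeR, Bcl2l1, Pmaip1 and Bcl2a1b passed as lower in Foxp3R397W and Foxp3KO Treg, and Bcl2a1b also in BATFcKO Treg YFP. Bcl2l11 lies above its controls in all 4 sets and passed in BATFcKO Treg YFP and Foxp3KO Treg.

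Bcl2l1, Bcl2a1b and Pmaip1, which were lower in both Foxp3 mutants, were each higher in eTreg (against cTreg), and no mutant sort was gated on activation. Pmaip1 was at 60.9 ± 14.2 and 72.2 ± 1.25 CPM in the R397W and Foxp3KO controls, and at 23.1 ± 2.85 CPM in eTreg, a separate sort. It was at 75 ± 7.67 CPM in WT Treg and 15.1 ± 3.5 CPM in WT Treg YFP (SD, n = 2 each). Sort and cell state cannot be told apart in these levels. Bcl2l11, lower in eTreg, was higher in Foxp3KO Treg. Bcl2 and Mcl1, also lower in eTreg, passed in neither Foxp3 mutant with edgeR over all libraries. Mcl1 passed as higher in Foxp3KO Treg with DESeq2 (adjusted p = 0.0086) and with that set fitted alone (adjusted p = 0.00078, edgeR). For Bcl2 the log2 fold change was 0.09 in Foxp3R397W Treg and 0.15 in Foxp3KO Treg. For Mcl1 it was 0.14 in Foxp3R397W Treg and 0.25 in Foxp3KO Treg. Markers of effector T cells (7 genes) summed to 522.9 to 615.7 CPM in BATFKO Treg against 1262.1 to 1352.1 CPM in WT Treg, to 312.3 to 328.8 CPM in BATFcKO Treg YFP against 991.2 to 1123.1 CPM in WT Treg YFP, to 778.0 to 1233.5 CPM in Foxp3R397W Treg against 1436.8 to 1487.4 CPM in their controls, and to 664.4 to 801.5 CPM in Foxp3KO Treg against 1312.1 to 1465.8 CPM in theirs. Markers of naive or central T cells (6 genes) summed to 3045.1 to 3976.1 CPM in BATFKO Treg against 2974.3 to 3084.4 CPM in WT Treg, to 3500.1 to 3621.6 CPM in BATFcKO Treg YFP against 2976 to 3033.5 CPM in WT Treg YFP, to 4270.3 to 4574.8 CPM in Foxp3R397W Treg against 2986.8 to 3020.3 CPM in their controls, and to 5102.7 to 5602.9 CPM in Foxp3KO Treg against 3119.4 to 3394.1 CPM in theirs. All 13 markers of both lists were above 1 CPM in every mutant and control library. The part of this shift in the changes of Bcl2l1, Bcl2a1b, Pmaip1 and Bcl2l11 was not tested.

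**Figure D4:**
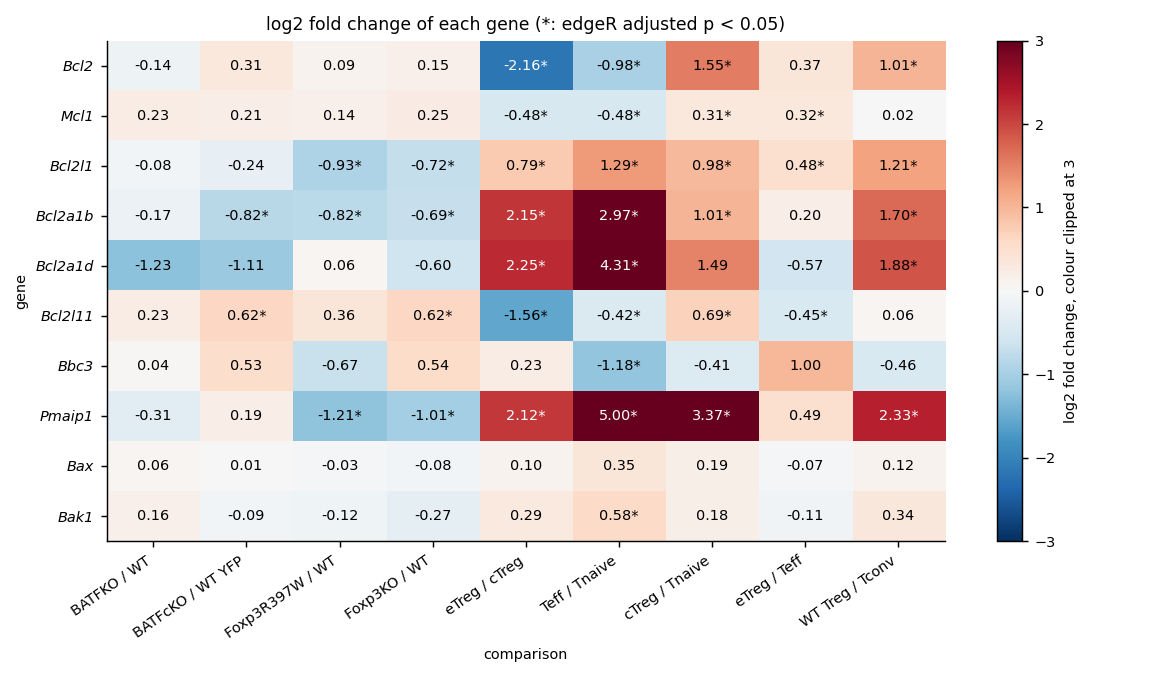
Log2 fold change of each gene (rows) in the 9 comparisons (columns, each named with the numerator first), with the value in each cell, colour clipped at 3 and an asterisk where the edgeR adjusted p was under 0.05. Bcl2l1, Bcl2a1b and Pmaip1 have values of the same sign in every column except BATFcKO Treg YFP. There Bcl2l1 is -0.24, Bcl2a1b -0.82 and Pmaip1 0.19. Their asterisks also differ in eTreg against Teff, where only Bcl2l1 of these genes has one. Bcl2 and Bcl2l11 are lowest in eTreg against cTreg, and Bax has no asterisk.

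Over the 9 comparisons Bcl2l1 and Bcl2a1b passed in 7 each and Pmaip1 in 6, while Bbc3 and Bak1 passed in 1 each and Bax in 0. Bax and Bak1 kept a narrow range over all 26 libraries, 63.0 to 107.9 CPM for Bax and 50.2 to 93.6 CPM for Bak1, against 137.4 to 823.4 CPM for Bcl2 and 0.499 to 80.5 CPM for Pmaip1. Bak1 shares 17.1% of its 50-base stretches with Ggnbp1 on the opposite strand, Bax shares 8.51% with the overlapping model Gm45808 and Bcl2 shares 5.25% with other genes, mainly an antisense transcript, so part of their reads may be ambiguous.

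Bcl2 and Bcl2l11, an inhibitor and the BH3-only protein it binds, were compared as a ratio of CPM per kilobase within each library. The ratio was 3.33 and 2.67 in eTreg against 4.37 and 4.69 in cTreg, and 1.64 and 1.77 in Teff against 2.50 and 2.51 in Tnaive. It was thus lower in effector than in resting cells of each lineage, and higher in Treg than in conventional cells at each stage. The ratio was 1.70 and 1.65 in Foxp3KO Treg against 2.33 and 2.27 in their controls, 2.41 and 2.19 in BATFKO Treg against 3.63 and 2.38 in WT Treg, and 3.41 and 2.89 in Foxp3R397W Treg against 3.86 and 3.67 in their controls. In BATFcKO Treg YFP it was 3.30 and 3.21 against 3.39 and 4.77 in WT Treg YFP. The mutant libraries lay below both of their controls in 3 of the 4 sets, and overlapped with them for BATFKO Treg. These ratios are of transcripts and carry no test.

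**Figure D5:**
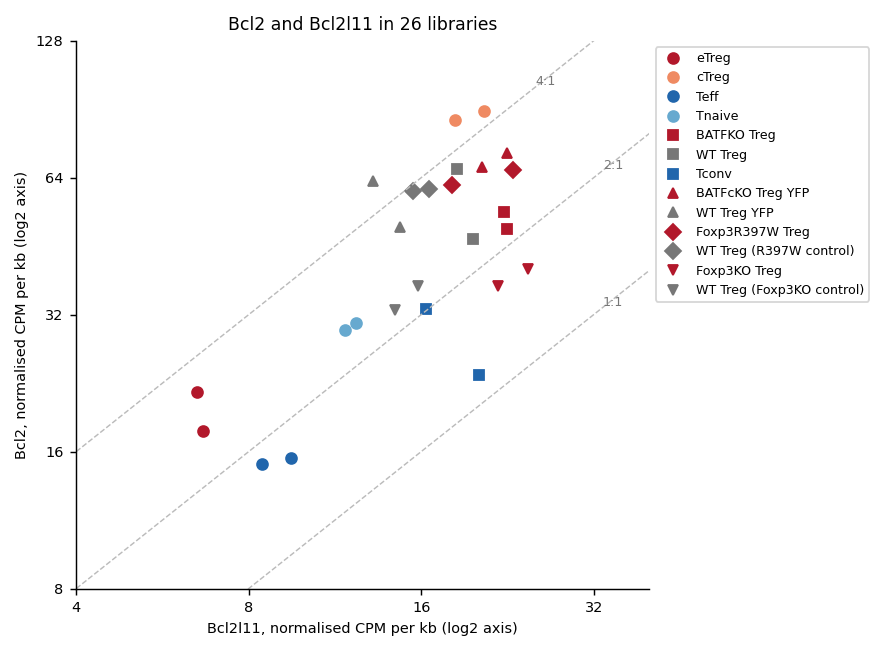
Bcl2 level (y axis) against Bcl2l11 level (x axis), both in normalised CPM per kilobase of exon on log2 axes, for each of the 26 libraries. Shapes mark the sorts, colours the groups, and dashed lines mark ratios of 1, 2 and 4. Teff and eTreg are at the lower left and cTreg at the upper right, and each mutant lies at a higher Bcl2l11 level than its controls.

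Mcl1 per kilobase stood 1210- and 1260-fold above its BH3-only partner Pmaip1 in Tnaive, against 31.6- and 23.9-fold in Teff. In Treg the same ratio was 27.1 and 21.4 in eTreg and 147 and 144 in cTreg. In the Foxp3 mutants it was 23.2 and 23.5 in Foxp3KO Treg against 9.80 and 9.73 in their controls, and 34.6 and 36.8 in Foxp3R397W Treg against 16.5 and 12.1 in theirs. In the BATF mutants it was 13.9 and 14.7 in BATFKO Treg against 11 and 8.83 in WT Treg, and 42.7 and 60 in BATFcKO Treg YFP against 41.7 and 60.6 in WT Treg YFP. The mutant libraries lay above both controls in the Foxp3KO, Foxp3R397W and BATFKO comparisons and overlapped with them in the YFP sort.

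Across the 26 libraries, after the mean of each sort was subtracted from the log2 CPM, the 10 genes fell into patterns that are given as descriptions, since libraries of a group share their biology. Bcl2a1b followed Pmaip1 (Pearson r = 0.927) and Bcl2l1 (0.890), and Bcl2l1 followed Pmaip1 (0.901). Bcl2 followed Mcl1 (0.833) and Bcl2l11 (0.757), and Mcl1 followed Bcl2l11 (0.784). The most negative values were those of Mcl1 with Bcl2a1d (-0.654) and of Bcl2l11 with Bcl2a1b (-0.618). Bax and Bak1 had an r of 0.645.

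Among 9302 other genes with a mean of at least 5 CPM, the gene most like each member in the same 26 libraries was Lta4h for Bcl2 (r = 0.963), Traf3ip3 for Mcl1 (0.936), Csf1 for Bcl2l1 (0.970), Zcchc18 for Bcl2a1b (0.983) and S100a6 for Bcl2a1d (0.941). For the BH3-only genes it was Kbtbd11 for Bcl2l11 (0.925), Erf for Bbc3 (0.887) and Ybx3 for Pmaip1 (0.985), and for the effectors Trabd for Bax (0.894) and Clic1 for Bak1 (0.937).

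Of 54 companion genes of the death pathway in 5 lists (other BCL2 family, apoptosome and caspases, caspase inhibitors, death receptors and adaptors, upstream regulators), 48 were tested. In BATFKO Treg and in BATFcKO Treg YFP 0 of the 48 passed with edgeR, where 2.69% and 2.04% of all tested genes did. At such shares 0 of 48 does not set these genes apart from all tested genes. In each of these comparisons DESeq2 called 2 of the 48, where it called 444 and 366 of all genes. Unadjusted p was under 0.05 for 7 of the 48 in each (edgeR). The share of all tested genes at that threshold is not given here, so no reading is drawn from the 7. In Foxp3R397W Treg 5 were lower and 0 higher (3.94% and 2.18% of all tested genes). The median log2 fold change was -0.08 for the 48 and -0.01 for all tested genes. In Foxp3KO Treg 7 were lower and 0 higher (6.39% and 2.62% of all tested genes), with medians of -0.07 for the 48 and 0.01 for all tested genes. Bid, Bcl2l15, Naip2 and Naip5 were lower in both. Bid, a BH3-only gene whose product is cleaved by caspase-8, was at 18.1 ± 2.78 CPM in Foxp3R397W Treg and 31.3 ± 3.76 CPM in their controls (adjusted p = 0.010, edgeR), and at 14.8 ± 0.749 CPM in Foxp3KO Treg and 23.5 ± 2.41 CPM in theirs (SD, n = 2 each, adjusted p = 0.0087, edgeR). Naip5 was 3.83-fold lower in Foxp3R397W Treg and 2.73-fold lower in Foxp3KO Treg, and Naip2 2.13- and 2.36-fold lower. The Naip genes carry the BIR repeat of caspase inhibitors but are best known as inflammasome sensors of bacterial proteins, and reads may be shared among their copies. Bcl2l2, which encodes the pro-survival protein BCL-W, was 1.68-fold lower in Foxp3KO Treg (adjusted p = 0.0023, edgeR).

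In eTreg against cTreg 14 of the 48 companion genes were higher and 6 lower (18.8% and 12.3% of all tested genes), with the smallest p for Naip5 (28.2-fold), Naip2 (7.14-fold) and Bcl2l2 (2.84-fold), and in Teff against Tnaive 16 were higher and 5 lower (21.2% and 14% of all tested genes), with the smallest p for Foxo1, Bcl2l2 and Naip5. Foxo1, a forkhead factor active in resting T cells and an activator of Bcl2l11, was at 240.8 ± 0.935 CPM in Teff and 532.3 ± 44.1 CPM in Tnaive (adjusted p = 4.4e-08, edgeR). Bcl2l2 was at 17.5 ± 1.25 CPM in Teff and 4.99 ± 0.287 CPM in Tnaive (adjusted p = 9.8e-08, edgeR). Naip5 had 350 reads in the Teff libraries and 2 in the Tnaive libraries, a ratio of 164 with a 95% counting interval of 45.0 to 1360. In cTreg against Tnaive 7 were higher and 0 lower (7.91% and 4.29% of all tested genes), among them Birc3 (1.57-fold) and Bcl2l2 (2.08-fold), which had the smallest p.

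In eTreg against Teff 11 companion genes were higher and 4 lower (8.21% and 7.26% of all tested genes), and in WT Treg against Tconv 10 were higher and 2 lower (12.1% and 6.68%). Fasl, the ligand of the death receptor FAS, was at 6.90 ± 0.294 CPM in eTreg and 36.3 ± 10.2 CPM in Teff (SD, n = 2 each, log2 -2.39 ± 0.259, adjusted p = 2e-06, edgeR). It was the only 1 of the 48 tested companion genes to pass for a lineage difference in the change from resting to effector cells (-1.89 ± 0.384, adjusted p = 0.0040, edgeR). Of all tested genes 5.42% passed there, and 6 of the 48 had an unadjusted p under 0.05 (edgeR). Naip5 and Bid followed Fasl in eTreg against Teff, 5.38- and 1.87-fold higher in eTreg, and Naip5, Bcl2l2 and Naip2 had the smallest p in WT Treg against Tconv, 20.4-, 3.31- and 4.93-fold higher in WT Treg. Fasl is also made by CD8 T and NK cells, whose markers were higher in the Teff libraries as given above, and the part of such cells was not tested.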

How the data were processed

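The deposited values were whole-number read counts per gene, which the authors deposited as a table with 1 column per library; per the submitters' processing notes the reads were aligned with STAR 2.6.1c to mm10, and per the labels' protocols poly(A) libraries were made with NEBNext Ultra Directional or UltraII kits. The counting tool and its strand setting are not given in the sources used here. A second deposited table holds 24 of these libraries and was not used, and 4 columns that match no sample were left out. Tconv were grouped by title, since their cell type label reads Treg with a CD4+hCD2- gate. No 2 libraries of a group agreed within sampling noise (chi-square per degree of freedom 3.12 to 31.9).

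Counts were filtered with filterByExpr, scaled by TMM and fitted in edgeR 4.0.16 (R 4.3.3) with a robust quasi-likelihood model, 1 coefficient for each of 13 groups over 26 libraries (13 residual degrees of freedom); p was adjusted by Benjamini-Hochberg over 12227 genes, with 0.05 as threshold. SE was obtained as the log2 fold change over the root of F. CPM use TMM-scaled totals, and exon lengths are from GENCODE M21. All 10 members, companion genes that passed in at least 2 mutants and the 3 with the smallest p per comparison, and for each member the most correlated other gene (prior count 2) are named, except some that are not reported here. The members and lists were chosen with earlier results of these data known. Alternatives were other scaling, no filter, a replicate block, single sorts, DESeq2 1.42.0, summed Bcl2a1 copies, leaving out each library and, chosen after seeing the data, leaving out the Foxp3KO set. Intervals on ratios of counts cover counting error only.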

Additional observations from a re-analysis of the deposited data

Results flagged for a closer look

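For 3 genes the change from resting to effector cells differed between Treg and conventional cells by a direct test of the difference. The difference (eTreg against cTreg minus Teff against Tnaive, log2 scale) was -1.18 for Bcl2, -1.14 for Bcl2l11 and -2.88 for Pmaip1. Behind these are log2 changes of -2.16 in Treg and -0.98 in conventional cells for Bcl2, of -1.56 in Treg and -0.42 in conventional cells for Bcl2l11, and of 2.12 in Treg and 5 in conventional cells for Pmaip1. The Pmaip1 value rests on 5 reads in each Tnaive library.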

How the results depend on the processing

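No gene that passed the test changed direction under any alternative. Counts of genes passed moved by over 1.5 times as follows. With the replicate block they were 1 in BATFKO Treg (Mcl1, adjusted p = 0.025), 5 in BATFcKO Treg YFP (Bcl2, Mcl1 and Bbc3 added), 6 in eTreg against Teff and 5 in the lineage difference, and Bbc3 passed as lower in cTreg against Tnaive (0.028) and WT Treg against Tconv (0.017); the numbers are not stated to pair libraries (same-numbered correlations 0.495 to 0.571 in the germline sort, 0.242 in the YFP sort, 0.0801 to 0.233 in the sorted populations), and the Foxp3 sets share none with their controls. With each sort fitted alone they were 3 in WT Treg against Tconv, 5 in Foxp3R397W Treg, 8 in Foxp3KO Treg, 5 in eTreg against Teff and 6 in the lineage difference. DESeq2 gave 1 in BATFKO Treg, and leaving out the Foxp3KO set, chosen after seeing the data, gave 1 in BATFcKO Treg YFP and removed Mcl1 from eTreg against Teff (adjusted p = 0.051). Leaving out 1 library gave 0 to 1 in BATFcKO Treg YFP, 2 to 4 in Foxp3R397W Treg and in Foxp3KO Treg, and 0 to 3 in eTreg against Teff. Without the filter Mcl1 missed the threshold in eTreg against Teff (adjusted p = 0.25).

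Some values that had not passed the test changed sign, and the causes of these moves were not tested. Mcl1 in WT Treg against Tconv was -0.007 with other size factors and with DESeq2, -0.008 without the filter and -0.005 without the Foxp3KO set. The Mcl1 lineage difference was -0.019 without the filter and -0.021 without the Foxp3KO set, and Bax in Foxp3R397W Treg was 0.002 without that set. On leaving out 1 library the log2 values that changed sign ranged as follows. In BATFKO Treg they were -0.377 to 0.133 for Bcl2, -0.565 to 0.14 for Bcl2a1b, -0.684 to 0.558 for Bbc3, -0.127 to 0.255 for Bax and -0.002 to 0.343 for Bak1. In BATFcKO Treg YFP they were -0.069 to 0.451 for Pmaip1 and -0.129 to 0.136 for Bax. In Foxp3R397W Treg they were -0.886 to 0.696 for Bcl2a1d and -0.059 to 0.043 for Bax. In WT Treg against Tconv they were -0.029 to 0.071 for Mcl1, -0.085 to 0.235 for Bcl2l11, -0.984 to 0.282 for Bbc3 and -0.212 to 0.563 for Bax. The Mcl1 lineage difference was -0.071 to 0.079. With 2 libraries a group, leaving 1 out assumes that the lone library varies like the other groups. Fold changes that rest on under 10 reads in a group (Bcl2a1d in Tnaive and Tconv) are limited by depth.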
